A study of Homo sapiens with 6 samples.

Results

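The 9 genes described here, RUNX2, LOX, SPARC, TWIST1, ZEB1, CDH2, THY1, FN1 and SPP1, are commonly used to recognise mesenchymal cells and osteoblasts. Their rows were taken by gene name, from a list drawn up with earlier results of these data known. Of the 17721 gene identifiers with a row in at least 1 of 2 deposited gene tables, 8 belonged to these 9 genes. Of these, 8 had a row in the second table and 6 had one in the first, and SPP1 had a row in neither. The study examined U2OS, an established human osteosarcoma cell line, and its title ties the DNA methyltransferase DNMT1 and the RNA methyltransferase NSun2 to apoptosis. The labels describe 6 RNA samples in 4 groups: 2 samples of RNA co-immunoprecipitated by mutant NSun2 from DNMT1 knockdown cells (shDNMT1), 2 such samples from control cells (shNC, labelled WT), and 1 input sample each of shDNMT1 and shNC cells. A plasmid for mutant NSun2 had been introduced into knockdown and control cells alike, and all samples came from 1 cell line.

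The tables hold FPKM, numbers of fragments that the authors scaled for transcript length and for the total of mapped fragments, with 1 value per gene. Their headers name no sample, so neither table can be called knockdown, control, input or immunoprecipitate, and no difference between these groups is given. The tables are called first and second only to tell them apart. A value has no replicate and no error, the depth behind it is unknown, and a difference describes the 2 tables without a test. A gene without a row is one that the table does not list, which is not a measured 0. The second table listed 16824 genes and the first 15167, with 14270 in both. DNMT1 stood at 9.36 FPKM in the second table and 23.3 in the first, and NSUN2 at 1147 and 559 FPKM.

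Mesenchymal cells are migratory, spindle-shaped cells that make connective tissue, and osteoblasts are the mesenchymal cells that lay down bone. RUNX2 is the transcription factor that commits mesenchymal progenitors to the osteoblast lineage, and TWIST1 and ZEB1 are transcription factors that hold cells in a mesenchymal state, ZEB1 by repressing epithelial genes such as CDH1. N-cadherin (CDH2) joins mesenchymal and neural cells to each other, and THY1 (CD90) is a surface marker of fibroblasts and mesenchymal stromal cells. The other 4 members encode secreted proteins of the matrix: fibronectin (FN1), which cells grip through integrins; SPARC (osteonectin), which binds collagen and calcium; lysyl oxidase (LOX), which cross-links collagen and elastin; and osteopontin (SPP1), a phosphoprotein of mineralised bone.

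The members comprised a pair of genes at moderate FPKM, a pair of low ones and a remainder below 1 FPKM. CDH2 had the highest level, with 16.2 FPKM in the second table and 7.41 FPKM in the first. FN1 followed with 11.7 FPKM in the second table and 4.84 FPKM in the first. ZEB1 had 1.60 FPKM in the second table and 1.80 FPKM in the first. TWIST1 had 1.57 FPKM in the second table and 1.70 FPKM in the first. These 4 genes stood in the same order in both tables. ZEB1 and TWIST1 lay close together in each table. Without replicates, whether any neighbours in the order differ beyond their spread is unknown.

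The other members with a row were lower still. RUNX2 had 0.806 FPKM in the second table and no row in the first. LOX had 0.677 FPKM in the second table and 0.140 FPKM in the first. SPARC, an abundant product of osteoblasts, had 0.0328 FPKM in the second table and no row in the first. THY1 had 0.0316 FPKM in the second table and 0.0802 FPKM in the first. The values of SPARC and THY1 in the second table were at or above those of only 1.14% and 1.03% of the genes listed there, so both sat at the bottom of the listed range. CDH2 by contrast was at or above 78.1% of listed genes in the second table and 62.6% in the first, and FN1 at or above 72.7% and 53.8%.

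**Figure D1:**
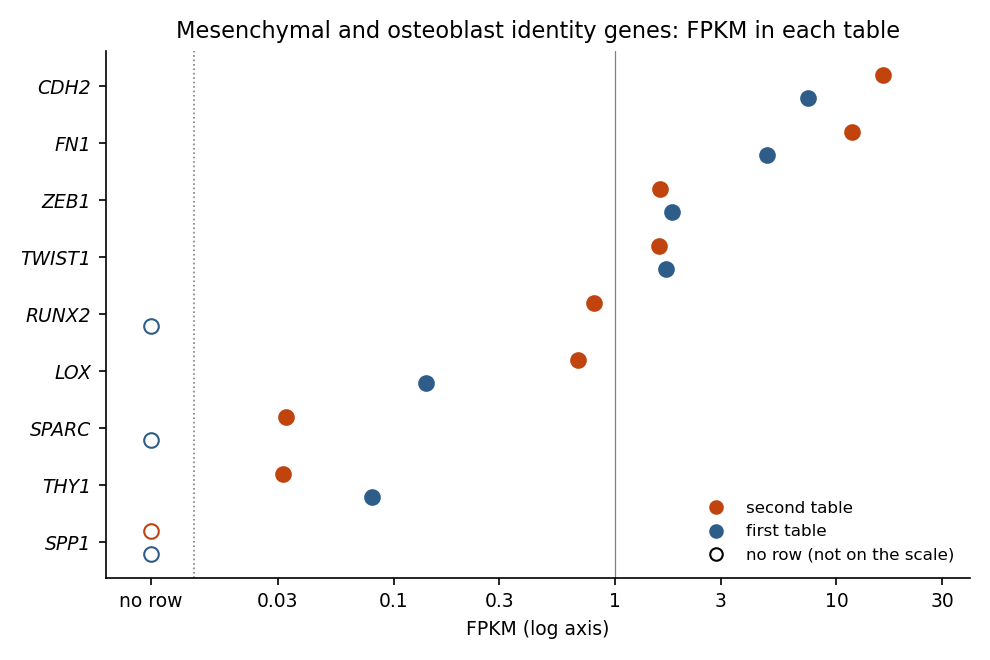
FPKM (log axis) of the 9 genes in the second table (orange, upper point of each row) and the first table (blue, lower point), 1 value each without error; open points left of the dotted line mark genes with no row and have no position on the scale. CDH2 and FN1 stand above 4 FPKM in both tables with the second table to the right, ZEB1 and TWIST1 stand between 1 and 2 FPKM with the points nearly together, and the other members stay under 1 FPKM.

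Beside the members, other osteoblast markers were low or without a row, apart from ALPL. Of 9 osteoblast markers, RUNX2, SP7, BGLAP, IBSP, COL1A1, COL1A2, ALPL, SPP1 and SPARC, 5 were listed in the second table and 2 in the first, and 1 and 2 of them reached 1 FPKM. SP7, the zinc finger factor that acts after RUNX2, had no row in either table, and neither had IBSP or COL1A2. Nearly all of their summed FPKM of 39.5 in the second table and 81.4 in the first came from ALPL, the alkaline phosphatase of bone and liver, at 38.0 and 78.4 FPKM. COL1A1, the main collagen of bone, had 0.451 FPKM in the second table and 3.04 FPKM in the first. The mesenchymal markers VIM, ZEB1, TWIST1, CDH2, THY1, FN1 and LOX all had rows in both tables and summed to 439 FPKM in the second and 278 FPKM in the first, of which vimentin (VIM), the intermediate filament protein of mesenchymal cells, made up 407 and 262 FPKM.

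Epithelial genes were listed beside them, 7 of them above every member in the second table: KRT8, KRT18, KRT7, MUC1, ELF3, ESRP2 and CLDN4. Of 22 epithelial genes, 16 were listed in the second table and 15 in the first, and their FPKM summed to 3142 and 3368, against 32.7 and 16.0 for the 9 identity genes. Most of that sum came from the keratins KRT8, at 1410 FPKM in the second table and 1597 FPKM in the first, and KRT18, at 1196 and 1293 FPKM. Both have many processed pseudogenes in the genome, so the upstream assignment of their fragments is uncertain, and it was not tested. KRT7, at 319 and 230 FPKM, and MUC1, at 104 and 104 FPKM, also stood above ALPL in each table. KRT5, CLDN3, ESRP1, OVOL1 and OVOL2 had no row in either table, and EPCAM, at 0.555 and 2.20 FPKM, and CDH1, at 0.392 and 8.42 FPKM, were low in the second table. KRT14, at 0.299 and 0.649 FPKM, and OCLN, at 0.0364 and 0.0741 FPKM, were low in both, so the epithelial list was mixed. Of the markers that define blood and endothelial, muscle and fat cells, PTPRC, CD3E, HBB and PECAM1, MYOD1 and MYOG, and ADIPOQ, FABP4 and PLIN1 had no row in either table. VWF, at 0.0318 and 0.202 FPKM, and DES, at 0.418 and 0.964 FPKM, had rows in both but were low. Further genes of these cells also had rows. HBA1 had 1.61 and 2.18 FPKM, and the fat cell factors PPARG and CEBPA had 17.4 and 9.23, and 5.70 and 17.5 FPKM. For the labelled cell type, an osteosarcoma line, the markers were thus mixed: ALPL and VIM were abundant, the other osteoblast markers were low or without a row, and some epithelial genes stood well above them. Whether this lies with the cells, the immunoprecipitation or the upstream processing was not tested.

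**Figure D2:**
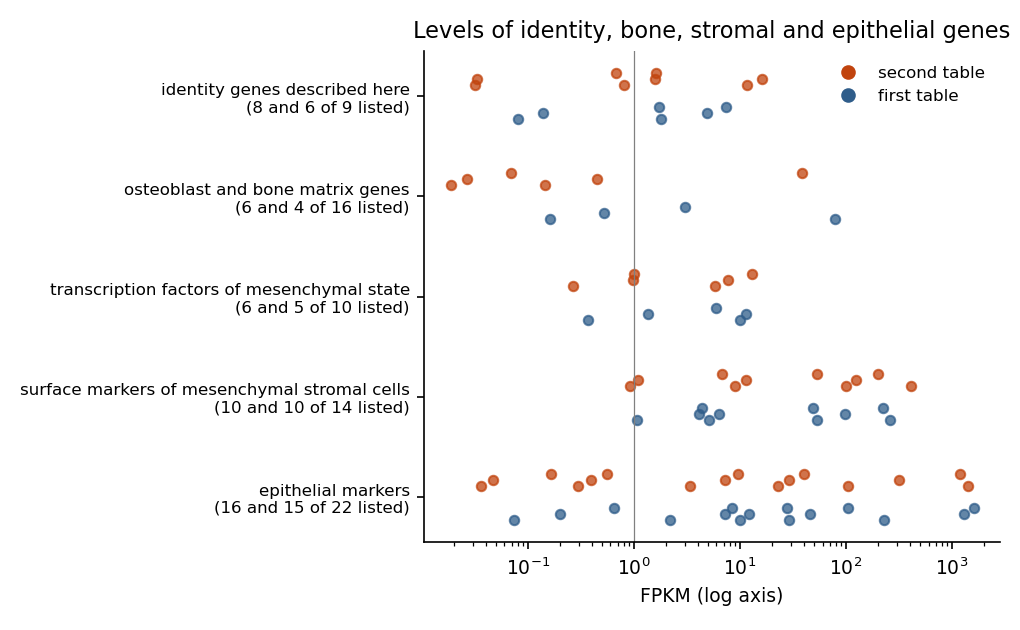
FPKM (log axis) of each listed gene of 5 lists in the second table (orange, upper points) and the first table (blue, lower points), with the number of listed genes in the second and the first table beside each name. The 9 identity genes reach at most 16.2 FPKM, bone genes other than ALPL lie at or below 3.04 FPKM, and the epithelial list extends to 1597 FPKM, through KRT8.

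For the 6 members in both tables, the log2 ratio of the second over the first table was computed on the log2(FPKM + 1) scale, which understates differences of low genes. FN1 had a log2 ratio of 1.13 and CDH2 one of 1.03, so in 2 of the 6 the second table exceeded the first at least 2-fold, as it did in 2.04% of all 14270 genes. None was at least 2-fold lower, as 1.68% of all genes were. LOX had a log2 ratio of 0.56, THY1 one of -0.07, TWIST1 one of -0.07 and ZEB1 one of -0.11. The members thus divided evenly, 3 higher and 3 lower, with a median of 0.25 against 0.05 over all genes, of which 54.8% were higher in the second table. CDH2 lay just past 2-fold. When the median over all genes was subtracted from every ratio, it came to 0.98, which left FN1 as the only member past 2-fold, with 1.63% of all genes past it upwards and 2% downwards. With totals equalised without the 20 highest genes, the members' counts stayed at 2 and 0, and 2.24% and 1.65% of all genes were past 2-fold upwards and downwards. At a mean of at least 1 FPKM these shares were 2.4% and 1.82%, with the same 2 of 4 members higher. Among genes sharing no locus they were 2.2% and 1.5%, with FN1 higher and TWIST1 not.

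Seen among all genes, FN1 ranked 156 and CDH2 ranked 256 of 14270 from the highest ratio. Among the 2464 genes with a mean level within 1.5-fold of that of FN1, 31 had a ratio at least as high, and among the 2302 such genes for CDH2, 35 had. For ZEB1 and TWIST1 the ratios lay near the middle of genes of like level, whose medians were 0.07 and 0.06. Without a pseudocount the folds of second over first table were 4.83 for LOX, 2.43 for FN1, 2.19 for CDH2, 0.924 for TWIST1, 0.888 for ZEB1 and 0.395 for THY1. LOX and THY1 thus differed by more than 2-fold as ratios of FPKM, but between values below 1 FPKM whose number of fragments is unknown. On that scale 8.89% of all genes were at least 2-fold higher and 9.59% at least 2-fold lower, so such folds were common. With a pseudocount of 0.1 FPKM these shares were 7.41% and 6.82%, and LOX was past 2-fold at 1.69 while THY1, at -0.45, was not.

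**Figure D3:**
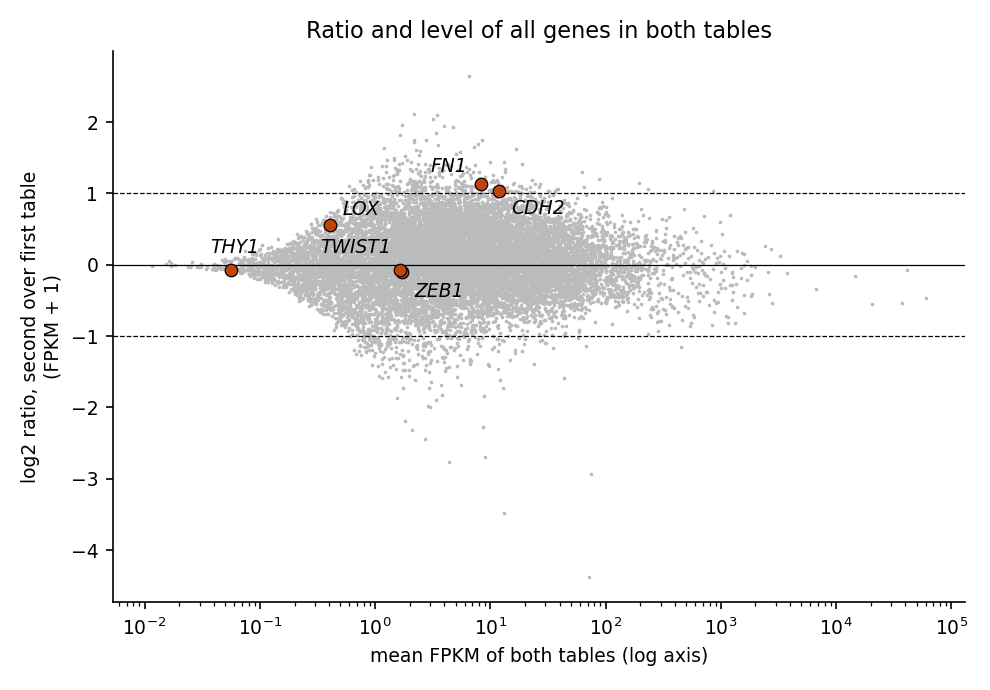
Log2 ratio of the second over the first table (FPKM + 1) against the mean FPKM of both tables (log axis) for the 14270 genes in both tables (grey) and the 6 identity genes among them (orange); dashed lines mark 2-fold. FN1 and CDH2 lie just above the upper dashed line, at 1.13 and 1.03, LOX lies between 0 and 1, and TWIST1, ZEB1 and THY1 lie just below 0.

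The ratio between the tables also moved with the number of neighbouring genes, which bears on most members. With genes put in 5 classes by how many other listed genes began no more than 1 Mb away, the median log2 ratio was 0.20 in the class with the fewest neighbours and -0.12 in the class with the most, and 3.95% and 0.604% of genes were past 2-fold upwards. FN1, CDH2, LOX, TWIST1 and ZEB1, with 9, 1, 5, 3 and 9 neighbours, all belonged to the class with the fewest. THY1, with 41, belonged to the fourth class, with a median of -0.01. FN1, CDH2 and LOX, at 1.13, 1.03 and 0.56, exceeded the median of their class, while TWIST1 and ZEB1 lay below it. The part of gene density in these ratios was not tested.

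RUNX2 and SPARC were listed in the second table only, and how often that happens at their level gives the scale. Of 1617 genes within 1.5-fold of the level of RUNX2 in the second table, 83.5% were also listed in the first, at a median of 0.830 FPKM. Of 323 genes within 1.5-fold of the level of SPARC, 36.5% were also listed in the first. A missing row was therefore common at the level of SPARC and less so at that of RUNX2. The listed interval of RUNX2 (chromosome 6, 44809317 to 45664349, hg38; ENSG00000124813) was shared with SUPT3H, a transcriptional coactivator gene that overlaps RUNX2 in the genome. SUPT3H had 0.753 FPKM in the second table and 1.55 FPKM in the first, a log2 ratio of -0.54. Fragments at shared intervals can be divided between genes upstream, and the part of that division in the missing row of RUNX2 was not tested. Among intervals of 2 genes, 86 had 1 gene, at 0.5 FPKM or more, with a row in the second table alone and the partner in both. The partner was lower in the second table in 40 of them (46.5%), with a median log2 ratio of 0.08. Over all genes 54.8% were higher in the second table, with a median of 0.05. What these intervals say of RUNX2 was not tested. At 9 of the 86 intervals, SUPT3H included, the partner's ratio was as low as that of SUPT3H.

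RUNX2 is transcribed from an upstream and a downstream promoter, and RefSeq windows for both (GRCh38.p14, 250 bases before to 50 bases after the start) were at hand. The downstream promoter is shown with the windows of FN1, CDH2 and SPARC, because DNMT1 acts on cytosines followed by guanine; these CG sites are in capitals, and each sequence reads 5′ to 3′ on the gene's strand.
FN1, chr2:215436019-215436318, minus strand: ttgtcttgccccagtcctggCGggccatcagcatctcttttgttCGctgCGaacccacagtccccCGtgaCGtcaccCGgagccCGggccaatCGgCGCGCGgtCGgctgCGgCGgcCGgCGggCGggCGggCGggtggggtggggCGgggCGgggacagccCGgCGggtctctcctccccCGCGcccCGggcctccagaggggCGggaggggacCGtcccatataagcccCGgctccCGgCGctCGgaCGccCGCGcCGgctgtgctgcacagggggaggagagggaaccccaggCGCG
CDH2, chr18:28177081-28177380, minus strand: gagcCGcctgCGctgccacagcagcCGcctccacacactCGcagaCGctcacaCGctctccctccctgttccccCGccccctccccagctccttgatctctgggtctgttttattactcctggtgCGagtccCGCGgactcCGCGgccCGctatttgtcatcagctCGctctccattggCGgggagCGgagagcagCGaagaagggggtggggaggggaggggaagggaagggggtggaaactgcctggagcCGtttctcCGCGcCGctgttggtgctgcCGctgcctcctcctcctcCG
RUNX2 downstream, chr6:45422025-45422324, plus strand: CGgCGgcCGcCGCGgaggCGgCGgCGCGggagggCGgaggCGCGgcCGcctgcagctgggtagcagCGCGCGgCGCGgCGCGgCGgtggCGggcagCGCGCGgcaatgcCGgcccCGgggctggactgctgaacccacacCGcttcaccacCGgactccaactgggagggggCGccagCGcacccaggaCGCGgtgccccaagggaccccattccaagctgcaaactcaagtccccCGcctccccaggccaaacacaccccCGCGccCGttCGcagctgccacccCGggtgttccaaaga
SPARC, chr5:151686866-151687165, minus strand: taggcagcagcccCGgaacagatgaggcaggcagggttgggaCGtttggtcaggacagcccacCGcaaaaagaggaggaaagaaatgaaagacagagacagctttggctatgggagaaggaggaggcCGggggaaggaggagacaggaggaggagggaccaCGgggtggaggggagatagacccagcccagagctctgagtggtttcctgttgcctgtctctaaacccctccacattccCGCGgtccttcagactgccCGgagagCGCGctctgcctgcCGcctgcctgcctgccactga
The FN1 window held 38 CG sites and that of CDH2 23. The downstream window of RUNX2 held 39 CG sites, more than 91.3% of all 35116 windows, whose median was 14. The SPARC window held 11. No methylation was measured in the tables, so these counts say nothing of the state of the sites.

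The upstream RUNX2 window and that of SPP1 are shown for another feature, the motif bound by RUNX proteins, TGTGGT on either strand, which is in capitals and reads ACCACA on these strands.
RUNX2 upstream, chr6:45328080-45328379, plus strand: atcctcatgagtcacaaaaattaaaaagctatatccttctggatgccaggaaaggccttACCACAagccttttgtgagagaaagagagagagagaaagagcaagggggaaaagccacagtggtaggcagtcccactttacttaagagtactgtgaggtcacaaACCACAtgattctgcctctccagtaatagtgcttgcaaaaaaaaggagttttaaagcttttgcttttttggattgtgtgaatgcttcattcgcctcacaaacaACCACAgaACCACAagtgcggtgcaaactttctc
SPP1, chr4:87975464-87975763, plus strand: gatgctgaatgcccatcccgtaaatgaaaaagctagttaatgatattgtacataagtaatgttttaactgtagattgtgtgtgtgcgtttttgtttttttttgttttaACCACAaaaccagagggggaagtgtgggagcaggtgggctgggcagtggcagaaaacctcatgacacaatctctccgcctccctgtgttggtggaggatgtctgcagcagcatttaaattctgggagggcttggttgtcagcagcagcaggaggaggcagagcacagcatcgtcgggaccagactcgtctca
The upstream RUNX2 window held 4 copies, which began at positions -191, -87, 17 and 25 counted from the first base of the transcript as 1, and the SPP1 window held 1, at -142. At least 1 copy was present in 13.1% of all windows. The upstream RUNX2 window had 2 CG sites and the SPP1 window 6, and 11.0% and 33.7% of windows had fewer. A match of letters is not evidence of binding.

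The remaining windows of the members were mixed. Of the 9 genes, 7 had at least 1 window, 17 in all; TWIST1 and THY1 had none. The 7 windows of ZEB1 held 7 to 35 CG sites, and the 3 of LOX 19 to 21. A second window of CDH2, inside the gene, held 4. The cyclic AMP response element TGACGTCA occurred in 1 member window, that of FN1, beginning at position -183, and in 1.85% of all windows; it contains 1 of the CG sites shown. The E-box CACCTG, on either strand, the letters to which ZEB1 and the SNAI factors bind, was present in 2 windows of ZEB1, in 2 overlapping windows of LOX, where it was the same site, and in that of SPP1, and in 20.6% of all windows. In 1 ZEB1 window an E-box overlapped a RUNX motif.

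Across protein-coding genes, richness in CG sites went with being listed. Genes were matched by RefSeq symbol, so a gene listed under an older name counted as without a row. Of 15843 genes with a window, 10353 were named in a table. A gene with more windows had more chances of a rich one, and neither limit was tested. Of 2259 genes whose richest window held 0 to 4 sites, 17.7% had a row in the second table and 12.9% in the first, while of 5621 genes with 30 or more, 81.4% and 79.1% had. Among the members, the gene with no row, SPP1, had 6 sites, and SPARC, near the floor, had 11, while FN1, CDH2 and ZEB1 reached 38, 23 and 35. LOX, with 21, and RUNX2, with 39 in its richest window, were nonetheless below 1 FPKM. The median log2 ratio of second over first table was between -0.03 and 0.13 in every one of 5 classes by CG sites.

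**Figure D4:**
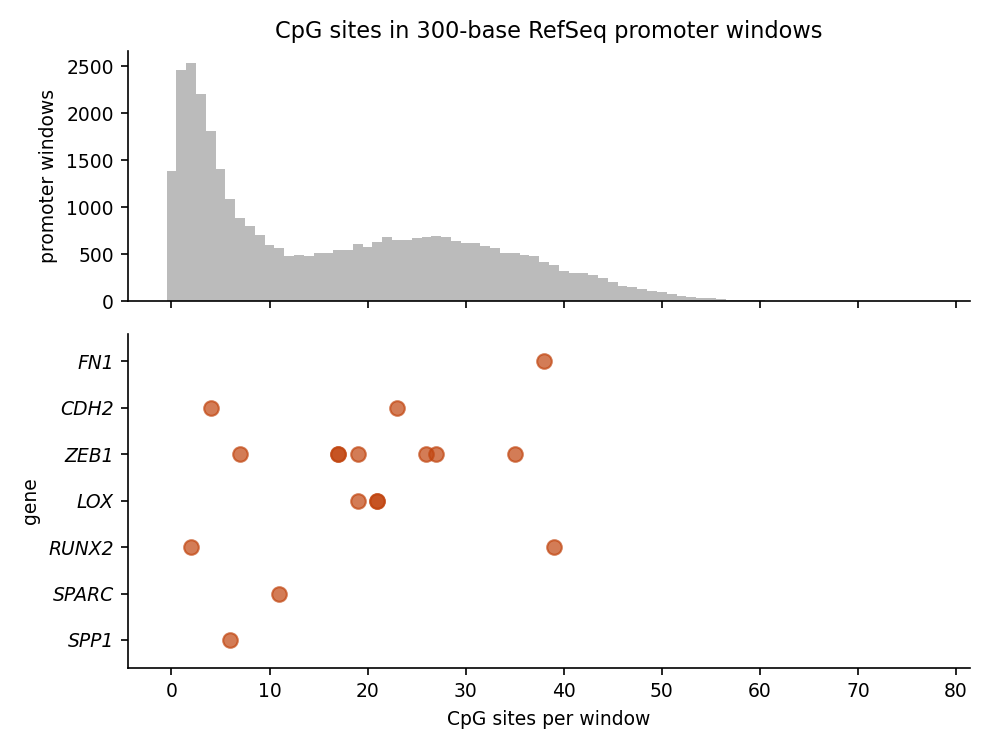
Number of CG (CpG) sites in promoter windows of 300 bases: above, the number of RefSeq windows at each count (35116 windows); below, every window of the 7 members that have any, 1 point per window, darker where points coincide. SPP1 and SPARC, at 6 and 11 sites, lie in the sparser part of the distribution, FN1 at 38 lies in its upper tail, and RUNX2 has a window at each end.

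For the counts of the lists that follow, the background is that 54.8% of all 14270 genes were higher in the second table. At least 2-fold higher were 2.04% of all genes, and at least 2-fold lower 1.68%. Among the transcription factors, RUNX2 had relatives at higher levels. RUNX1, the RUNX factor of blood formation, had 9.14 FPKM in the second table and 4.96 FPKM in the first, a log2 ratio of 0.77. RUNX3 had 3.46 FPKM in the second table and 3.98 FPKM in the first, a log2 ratio of -0.16. CBFB, the subunit that RUNX proteins need for stable DNA binding, had 15.1 FPKM in the second table and 6.67 FPKM in the first, and its log2 ratio of 1.07 was past 2-fold. Both relatives and the partner thus exceeded the 0.806 FPKM of RUNX2. Of 15 regulators and partners of RUNX2, 14 had rows in both tables, 10 higher and 4 lower in the second, with a median of 0.32 and none past 2-fold. The highest in level were ATF4, a factor that osteoblasts need for terminal differentiation, at 130.0 and 104 FPKM, and the ubiquitin ligase STUB1, at 82.1 and 90.5 FPKM.

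The other factors of the mesenchymal state were uneven. Of 10 such factors besides TWIST1 and ZEB1, 6 were listed in the second table and 5 in the first, and the 4 in both had a median log2 ratio of -0.03 with none past 2-fold. FOXC2, a forkhead factor, had 13.0 FPKM in the second table and 11.4 FPKM in the first. SNAI1, a zinc finger repressor of CDH1, had 5.80 FPKM in the second table and 9.97 FPKM in the first, a log2 ratio of -0.69. Both exceeded TWIST1 and ZEB1 in each table, as did TWIST2, the close relative of TWIST1, at 7.65 and 5.91 FPKM. SNAI2, like RUNX2, had a row in the second table only, at 0.982 FPKM.

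TWIST1 acts as a dimer with E proteins, and ID proteins withhold those partners. Of 9 genes for partners and inhibitors, 5 were in both tables, 1 higher and 4 lower in the second, with a median log2 ratio of -0.22 and none past 2-fold. ID3 had 59.9 FPKM in the second table and 74.9 FPKM in the first. ID1 had 44.0 FPKM in the second table and 51.5 FPKM in the first. Both were far above TWIST1, which had 1.57 and 1.70 FPKM, whereas ID2 was below it, at 1.34 and 1.47 FPKM. The 7 corepressor partners of ZEB1 were all in both tables, 6 higher and 1 lower in the second, with a median of 0.38 and none past 2-fold. The histone demethylase KDM1A had 63.1 and 48.3 FPKM, and CTBP1, which ZEB1 binds directly, had 59.8 and 55.9 FPKM.

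Among the matrix genes, FN1 was higher in the second table, and so were all 7 receptors of fibronectin and osteopontin with rows in both tables, as were 54.8% of all genes. The receptors had a median log2 ratio of 0.56, against 0.05 over all genes, and 1 of the 7 was past 2-fold; 6 of the 7 stayed higher after subtracting the median over all genes. CD44, a receptor of hyaluronan that also binds osteopontin, had 124 FPKM in the second table and 53.2 FPKM in the first, and at a log2 ratio of 1.21 was the one past 2-fold. SDC4, a heparan sulfate proteoglycan that assists integrins at focal adhesions, had 119.7 FPKM in the second table and 64.8 FPKM in the first. ITGA5, which with ITGB1 forms the principal fibronectin receptor, had 102 FPKM in the second table and 84.1 FPKM in the first. All 3 stood several times above FN1 in either table.

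The other matrix genes divided. Of 22, 16 were in both tables, 10 higher and 6 lower in the second, with a median log2 ratio of 0.15. After subtracting the median over all genes these counts became 9 and 7, and with totals equalised 11 and 5. CYR61 (CCN1), a secreted regulator of adhesion and a known YAP target, was at 89.6 FPKM in the second table and 35.8 FPKM in the first, a log2 ratio of 1.30. THBS1, thrombospondin, was at 22.8 FPKM in the second table and 10.6 FPKM in the first, a log2 ratio of 1.03 that the subtraction of the median brought under 2-fold. LUM, a collagen-binding proteoglycan, was lower in the second table, at 0.183 FPKM against 1.53 in the first, a log2 ratio of -1.10. TIMP1, an inhibitor of matrix proteases, was the highest of the list at 221 and 231 FPKM. FBN2, a fibrillin, had 71.7 and 72.6 FPKM, next after TIMP1 in the first table and below CYR61 as well in the second table.

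LOX and SPARC each had some relatives at much higher levels. LOXL2, a relative that also cross-links collagen, had 30.5 FPKM in the second table and 25.2 FPKM in the first, against 0.677 and 0.140 FPKM for LOX. The other relatives of LOX were also low: LOXL4 at 0.485 and 0.396 FPKM, LOXL1 at 1.09 and 0.831 FPKM, and LOXL3 at 1.26 and 1.88 FPKM. BMP1, the protease that activates LOX by removing its propeptide, had 18.3 and 19.5 FPKM. Of the 8 genes of this list other than LOX, 7 were in both tables, 3 higher and 4 lower in the second, with a median log2 ratio of -0.09 and none past 2-fold. LOX shared its interval (chromosome 5, 121961961 to 122078285; ENSG00000113083) with SRFBP1, at 0.662 and 0.522 FPKM.

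Of the 7 relatives of SPARC, 4 had rows in both tables, 3 higher and 1 lower in the second, with a median of 0.24, and 3 had no row in either table. SMOC1, a calcium-binding matrix protein, had 50.9 FPKM in the second table and 63.4 FPKM in the first. FSTL1 had 28.1 FPKM in the second table and 21.4 FPKM in the first. SPOCK1, a proteoglycan, had 4.04 FPKM in the second table and 1.25 FPKM in the first, a log2 ratio of 1.16 past 2-fold. These relatives stood far above SPARC itself (chromosome 5, 151661096 to 151724782; ENSG00000113140). Of 16 osteoblast and bone matrix genes besides the members, 6 were listed in the second table and 4 in the first. All 3 in both were lower in the second, with a median of -1.02, and COL1A1 and ALPL, at -1.48 and -1.02, were past 2-fold. Over all genes 54.8% were higher in the second table and 1.68% at least 2-fold lower. BGLAP, TNFRSF11B and COL5A2 had rows in the second table only, at 0.144, 0.0698 and 0.0186 FPKM. PTH1R had a row in the first only, at 0.160 FPKM.

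Among the surface genes, CDH2 stood beside other cadherins that differed in either direction. Of 13 cadherins and catenins other than CDH2, 8 were in both tables, 5 higher and 3 lower in the second, with a median log2 ratio of 0.31. CDH13, a cadherin without a cytoplasmic domain, had 22.6 FPKM in the second table and 9.70 FPKM in the first, a log2 ratio of 1.14. CDH1, the epithelial cadherin that ZEB1 represses, had 0.392 FPKM in the second table and 8.42 FPKM in the first, a log2 ratio of -2.76. CDH2 was thus higher and CDH1 lower in the second table, each past 2-fold on the deposited scale, while ZEB1 itself had a fold of 0.888. CDH1 had 48 listed neighbours within 1 Mb and CDH2 had 1, at opposite ends of the density classes, and the part of this in their ratios was not tested. The plakoglobin gene JUP had 117 and 166 FPKM, and CTNNA1, the catenin that links cadherins to actin, 87.2 and 72.1 FPKM.

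THY1 was below every other stromal surface gene that had a row. Of 14 others, 4 had no row in either table and 10 were listed in both, 7 higher and 3 lower in the second, with a median log2 ratio of 0.33; less the median over all genes the counts were 6 and 4. Apart from VIM, the highest was S100A4, a calcium-binding protein of motile cells, with 201 and 222 FPKM. PDGFRB, a growth factor receptor of stromal cells, had 1.08 FPKM in the second table and 4.07 FPKM in the first, a log2 ratio of -1.28. THY1 (chromosome 11, 119381778 to 119526664; ENSG00000154096) shared its interval with USP2-AS1, at 0.468 and 0.400 FPKM, and with a transcript named after its clone, at 0.653 FPKM in the second table and without a row in the first. Both exceeded THY1 in each table that lists them.

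TGF-beta signalling, which induces FN1 and ZEB1 in many epithelial cells, was represented by 17 genes, of which 16 had rows in both tables. Of these, 12 were higher and 4 lower in the second, with a median of 0.18, where 54.8% of all genes were higher. TGFBI, a matrix protein named for its induction by TGF-beta, had 7.11 FPKM in the second table and 2.09 FPKM in the first, a log2 ratio of 1.39. BMPR1A, a BMP receptor, had 5.08 FPKM in the second table and 1.76 FPKM in the first, a log2 ratio of 1.14. The ligand TGFB1 had 50.5 and 56.4 FPKM, and its signal transducer SMAD2 27.4 and 22.9 FPKM. Of the 22 epithelial genes, 14 were in both tables, 2 higher and 12 lower in the second, with a median of -0.19. With totals equalised the counts were 4 and 10. CDH1, the tight junction gene CLDN7, at 3.40 and 9.98 FPKM, and EPCAM were the 3 past 2-fold, all lower in the second table. Over all genes 54.8% were higher there and 1.68% at least 2-fold lower. Listed neighbours within 1 Mb ran from 13 (DSP) to 83 (CLDN7) for the epithelial genes in both tables. For the receptors of fibronectin and osteopontin in both tables they ran from 4 (ITGAV) to 42 (SDC4). The part of gene density in the counts of the lists was not tested.

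**Figure D5:**
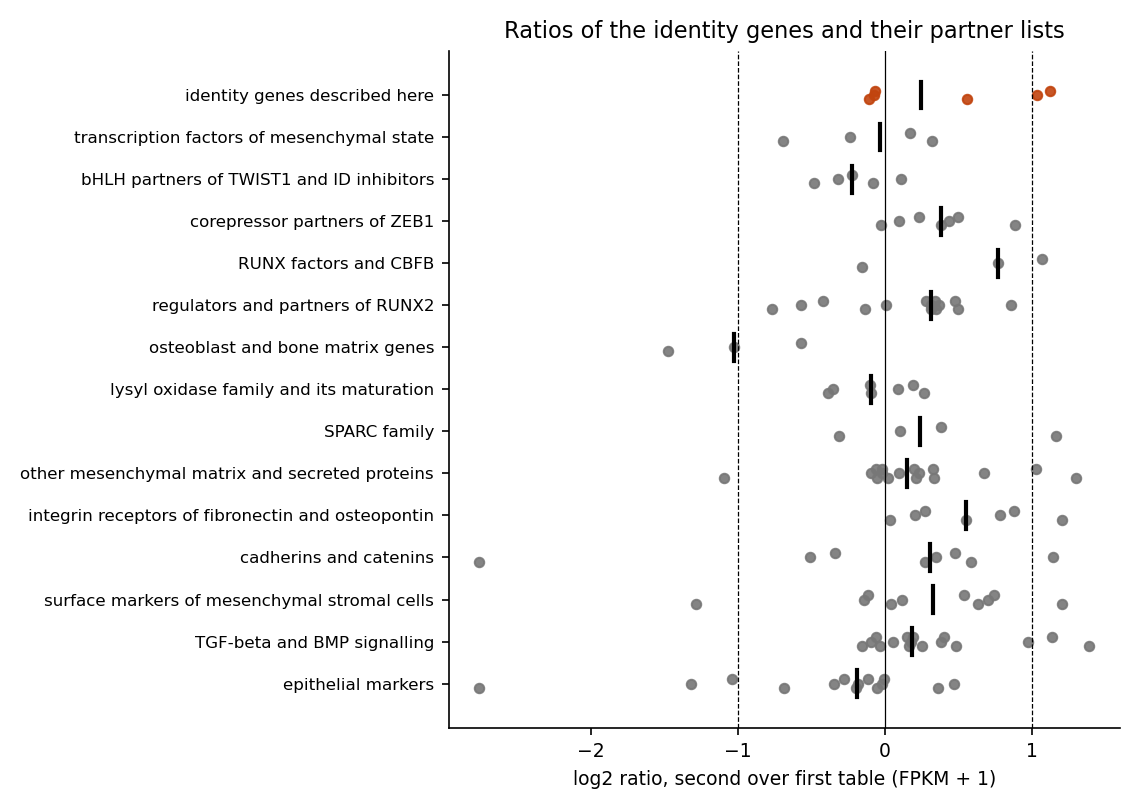
Log2 ratio of the second over the first table (FPKM + 1) of each gene in both tables, for the identity genes (orange) and 14 lists of partner and marker genes (grey) that hold at least 3 such genes; black bars are list medians and dashed lines mark 2-fold. Receptors of fibronectin and osteopontin all lie to the right of 0, the 3 bone matrix genes all lie to the left, and CDH1, at -2.76, is the leftmost point of 2 lists.

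The intervals of the other members were as follows. FN1 (chromosome 2, 215360440 to 215436172, hg38; ENSG00000115414) and TWIST1 (chromosome 7, 19020991 to 19117672; ENSG00000122691) had intervals identical to that of no other listed gene. Only identical intervals were counted as shared, so other overlap was not examined. RefSeq genes in the interval of FN1 also included ATIC and FN1-DT, and in that of TWIST1 LOC124901597. CDH2 (chromosome 18, 27950966 to 28177446; ENSG00000170558) shared its interval with a transcript named after its clone, at 1.52 FPKM in the second table and without a row in the first. ZEB1 (chromosome 10, 31187883 to 31529814; ENSG00000148516) shared its interval with its antisense gene ZEB1-AS1, at 0.497 and 0.557 FPKM, and with the pseudogene SPTLC1P1, at 0.471 FPKM in the second table and without a row in the first. Use of strand in the upstream counting is not stated, so fragments of ZEB1 and ZEB1-AS1 may not have been told apart. With FPKM summed over the genes of an interval that had rows in both tables, the log2 ratio of LOX was 0.49, that of ZEB1 -0.12 and that of THY1 0.02, so THY1 turned direction. With genes without a row also counted, as 0, which was not measured, CDH2 came to 1.15, ZEB1 to 0.09 and THY1 to 0.54.

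The genes whose values were nearest to those of a member, by distance over both log2(FPKM + 1) values, were PMAIP1 and SPATS2 for FN1 and LIMA1 and PLK2 for CDH2. PMAIP1, a BH3-only protein that promotes apoptosis, had 11.9 FPKM in the second table and 4.81 FPKM in the first. LIMA1, an actin-binding protein, had 15.9 FPKM in the second table and 7.09 FPKM in the first. For ZEB1 they were RILPL2 and ZADH2, for TWIST1 AC011330.5 and LIN54, for LOX the pseudogene RPL21P93 and a gene named after its clone, and for THY1 AKAP3 and PRKCB. With 2 values per gene, nearness says only that these genes had a like level and a like ratio.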

How the data were processed

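FPKM values were made by the authors and deposited as 2 tables of gene identifier, gene name, locus and FPKM, per the file headers. The tool that computed FPKM and any pooling of libraries are not given in the sources used here. Tools named in the submitters' processing notes, with no role, are MACS 1.4.2, BWA 0.7.13 and cutadapt 1.12, and the build named is hg38. No header ties a table to a sample, so groups were not compared and no test was possible. Because FPKM is relative to a total, abundant RNAs affect the others.

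The log2 ratio was log2((second + 1)/(first + 1)), for genes in both tables, with a pseudocount of 1 FPKM; at least 2-fold on this scale was the threshold used. Its code was tested on simulated data. Locus starts were counted from 0: with 1 added, 1824 equalled the RefSeq start, against 148 as deposited. Promoter windows came from RefSeq (GRCh38.p14).

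The members and lists were chosen with earlier results of these data known. Named from each list were up to 4 genes past 2-fold and the 2 highest in level, with genes sharing a member's locus, the 2 genes nearest to each member, DNMT1 and NSUN2; further list genes named as examples were picked with their values known. CYR61, CTGF, EFEMP2 and the T gene stood for CCN1, CCN2, FBLN4 and TBXT. The alternatives were another or no pseudocount, 2 scalings, a level minimum of 1 FPKM, loci sharing no gene and sums over shared loci. Depth is unknown, so no intervals are given. Python 3.11.15, pandas 2.3.3, numpy 2.4.6 and matplotlib 3.10.9 were used.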

Additional observations from a re-analysis of the deposited data

How the results depend on the processing

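No paired analysis was possible because no value is tied to a replicate, and no replicate could be left out. Of the 6 members in both tables, 2 exceeded 2-fold upwards in the second table and 0 downwards. After subtracting the median over all genes, 1 was higher, since CDH2 came to 0.98; with a pseudocount of 0.1 FPKM, and with none, 3 were higher, since LOX came to 1.69 and 2.27. Without a pseudocount 1 was lower, THY1, at -1.34. Among genes sharing no locus 1 of 2 was higher, by construction, as FN1 and TWIST1 alone remained. The members' median of 0.25 became 0.51 with a pseudocount of 0.1 and 0.51 with none, 0.48 at a mean of at least 1 FPKM, with 4 members, and 0.53 among genes sharing no locus. A smaller pseudocount enlarges ratios by construction. The median of 3 osteoblast and bone matrix genes moved from -1.02 to -2.30 with a pseudocount of 0.1, that of RUNX factors and CBFB to 0.87, and that of the receptors to 0.87. With totals equalised without the 20 highest genes, the members' counts stayed at 2 and 0. No member changed sign under these settings. With FPKM summed over all genes at a shared interval, THY1 came to 0.54 with genes without a row as 0 and to 0.02 with genes in both tables alone, against -0.07, and ZEB1 to 0.09 and -0.12, against -0.11, so THY1 turned in both sums and ZEB1 in the sum that counts missing rows as 0. Settings without a pseudocount or by locus were chosen after seeing the data. Unknown depth limits RUNX2, LOX, SPARC and THY1 most.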

Other observations

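Markers of other mesenchymal lineages gave mixed values. PPARG, the master regulator of fat cell formation, had 17.4 FPKM in the second table and 9.23 FPKM in the first, above all 9 identity genes in each table. CEBPA, its partner factor, had 5.70 FPKM in the second table and 17.5 FPKM in the first, a log2 ratio of -1.46. The other 4 adipocyte genes, ADIPOQ, FABP4, PLIN1 and LEP, had no row in either table. SOX9, the cartilage factor, had 0.843 FPKM in the second table and 0.905 FPKM in the first, and COL2A1, the collagen of cartilage, had 0.178 FPKM in the second table only. DES, an intermediate filament of muscle, had 0.418 FPKM in the second table and 0.964 FPKM in the first. Of 10 blood and endothelial genes, 4 were listed in the second table and 3 in the first, the highest being HBA1 at 1.61 and 2.18 FPKM.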
